A study of Rattus norvegicus with 4 samples.

Results

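The genes described here are 7 membrane transporters that set the ion gradients of neurons and glia: the chloride cotransporters Slc12a2 and Slc12a5, the Na,K-ATPase beta subunits Atp1b1 and Atp1b2, the sodium-calcium exchangers Slc8a1 and Slc8a2, and the plasma membrane calcium pump Atp2b2. They were taken by gene symbol from the array's annotation, using only probe sets annotated to 1 gene, which gave 11 probe sets for 7 of the 14218 genes measured. Each gene is represented by the probe set with the highest mean over all arrays, and its other probe set, where there is one, is given for agreement. Sprague-Dawley rats were injected in the hippocampus, tissue of the CA3 area was taken 24 h later, and total RNA was measured on 4 arrays, 1 per group. The groups were kainic acid with the peptide NAP (KA+NAP), kainic acid alone (KA), NAP alone, and the vehicle PBS. Kainic acid is an agonist of kainate-type glutamate receptors that causes seizures and loss of neurons, and NAP is a short peptide derived from activity-dependent neuroprotective protein (ADNP). The series text names the CA3 area, whereas the sample labels name hippocampi. Neither says whether an array holds 1 animal or a pool, nor the age or sex of the rats.

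Values are MAS5 intensities, a linear brightness per probe set that the authors had scaled to 1 level on every array. With 1 array per group no value carries a replicate error, so no test, p-value or standard error is given and no 2 neighbouring levels can be said to differ beyond their spread. Differences are on the log2(intensity + 10) scale, and a gene was counted as apart at 2-fold, a fixed rule of size. Counts cover genes whose mean over the 4 arrays exceeded 62.75, the median over probe sets, which left 9490 genes and 6 of the 7 transporters. Slc8a2 was below that level. An intensity of 1 probe set is compared between arrays only, not with that of another gene. The 3′ over 5′ signal of the beta-actin controls is a measure of RNA integrity and amplification. It was 15.5 on the KA+NAP array, 11.4 on KA, 7.92 on NAP and 14.1 on PBS. KA+NAP minus NAP thus sets the highest of these ratios against the lowest. The GAPDH controls gave ratios between 1.31 and 1.56.

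Neurons keep sodium and calcium low inside and potassium high with pumps that spend ATP, and exchangers and cotransporters then use the sodium and potassium gradients to move calcium and chloride. The Na,K-ATPase needs a beta subunit to reach the membrane. NKCC1, the product of Slc12a2, brings chloride into cells, while KCC2, the neuronal product of Slc12a5, carries it out, and the balance of both sets whether GABA-A receptors inhibit a neuron. Calcium leaves through exchangers of the Slc8 family (NCX) and through pumps of the Atp2b family (PMCA).

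None of the 6 transporters past the filter reached 2-fold in KA minus PBS, where 4.91% of all genes were higher by that rule and 2.39% lower. Their differences were smaller and went mostly one way. Slc12a5, Atp1b1, Atp1b2 and Atp2b2 were lower on both KA arrays than on both arrays without KA, and Slc12a2 was higher on both. These are 4 of 6 below, where 28.7% of all genes had both KA arrays below, and 1 of 6 above, where 32.3% had both above. The median log2 difference of the 6 was −0.43 in KA minus PBS and −0.24 in KA+NAP minus NAP, against 0.02 and 0.03 over all genes. The first of these medians was −0.15 when probe sets were averaged and −0.27 against the NAP array. At a smaller size, Slc12a5, Atp1b2 and Atp2b2, 3 of 6, were at least 1.5-fold lower in KA minus PBS (9.56% of all genes) and 1 of 6, Slc12a5, in KA+NAP minus NAP (9.38% of all genes). The 1.5-fold rule was chosen after the values were seen, and its calls sit close to the limit. The count in KA minus PBS was 2 with quantile normalization, without Slc12a5 at −0.55, 2 against the NAP array, without Atp2b2 at −0.27, and 1 when probe sets were averaged. The 1 in KA+NAP minus NAP was Atp2b2 at −0.64 when the PBS array replaced the NAP array.

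**Figure D1:**
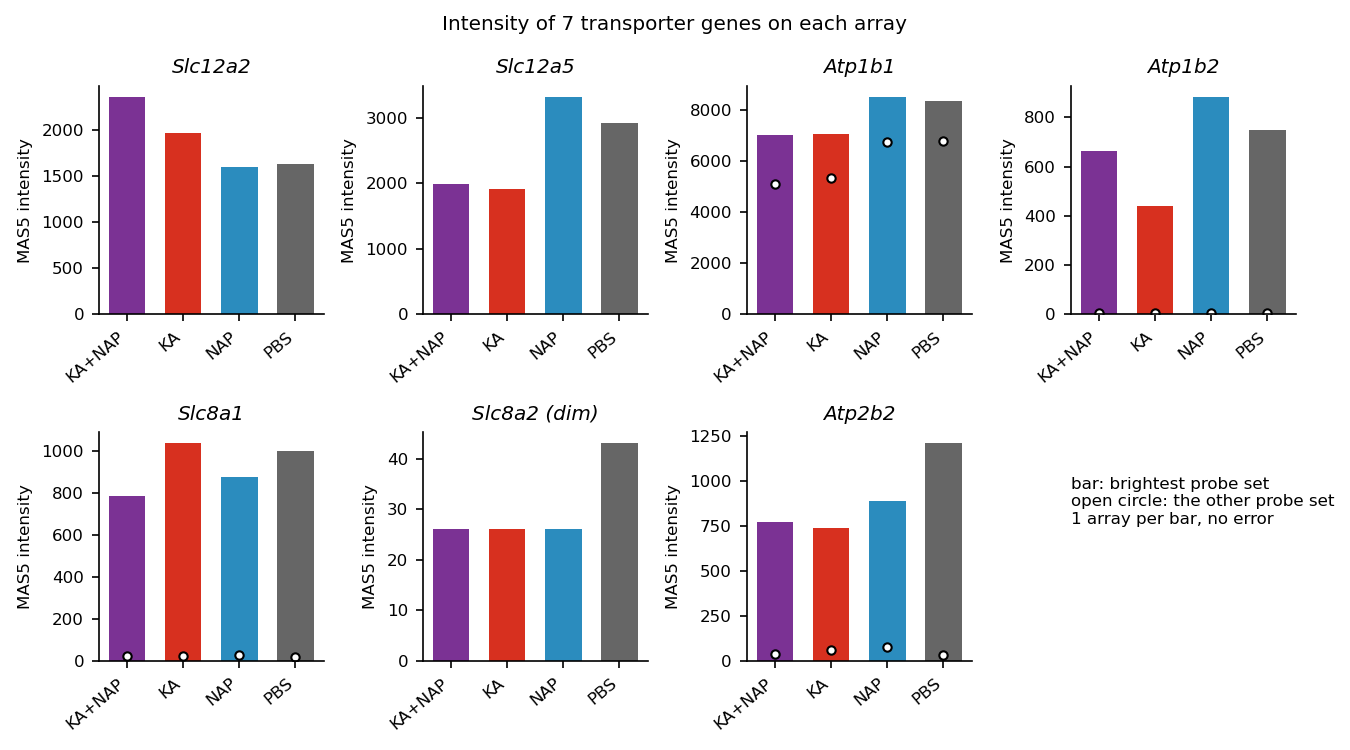
MAS5 intensity (linear, from 0) of each transporter gene on the KA+NAP, KA, NAP and PBS arrays. Bars are the brightest probe set and open circles the other probe set where there is one, with 1 array per bar and no error. Slc12a5 stands at 1988 and 1915 on the KA+NAP and KA arrays, below 3318 and 2922 on the NAP and PBS arrays, and Slc12a2 runs the other way.

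The chloride cotransporters differed in opposite directions. Slc12a5 (KCC2) had an intensity of 1988 on the KA+NAP array, 1915 on the KA array, 3318 on the NAP array and 2922 on the PBS array. Both KA arrays lay close to each other and well below both arrays without KA. The log2 difference was −0.61 in KA minus PBS, a value as low or lower in 8.87% of all genes, and −0.74 in KA+NAP minus NAP, as low or lower in 5.49%. These differences share no array. With the arrays without KA exchanged, they were −0.79 for KA minus NAP and −0.55 for KA+NAP minus PBS. Slc12a5 has 1 probe set, so there is no second measurement on these arrays.

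Slc12a2 (NKCC1) had 2359 on the KA+NAP array, 1971 on the KA array, 1602 on the NAP array and 1630 on the PBS array. The arrays without KA were nearly level, and KA+NAP was the highest of all. The log2 difference was 0.27 in KA minus PBS, as high or higher in 28.4% of genes, and 0.56 in KA+NAP minus NAP, as high or higher in 14.98%. Slc12a2 also has 1 probe set. Taken against Slc12a5, the difference of Slc12a2 stood 0.88 higher in KA minus PBS and 1.29 higher in KA+NAP minus NAP on the log2 scale. A common factor on an array cancels in this gap apart from the pseudocount, but other kinds of rescaling and unequal 3′ bias need not cancel. With quantile normalization Slc12a2 and Slc12a5 were at 0.29 and −0.55 in KA minus PBS. In KA+NAP minus NAP that setting gave 0.60 and −0.68. In NAP minus PBS the gap was −0.21.

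The beta subunits of the Na,K-ATPase were both lower with KA. Atp1b1, the widespread neuronal beta 1 subunit, had 7011 on the KA+NAP array, 7047 on the KA array, 8509 on the NAP array and 8350 on the PBS array. The KA arrays were nearly equal to each other, as were the arrays without KA. The log2 differences were −0.24 in KA minus PBS and −0.28 in KA+NAP minus NAP, with 26.3% and 24.99% of all genes as low or lower. The second probe set gave 5094 with KA+NAP, 5320 with KA, 6740 with NAP and 6790 with PBS, also with both KA arrays below both others, and with differences of −0.35 and −0.40. With quantile normalization the KA minus PBS difference of the brighter probe set shrank to −0.05.

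Atp1b2, the beta 2 subunit that is known in rodents as the adhesion molecule on glia, had 664 on the KA+NAP array, 438 on the KA array, 883 on the NAP array and 750 on the PBS array. The KA array was lowest, and the KA+NAP array lay between it and the PBS array. The log2 difference was −0.76 in KA minus PBS, as low or lower in 5.14% of genes, and −0.41 in KA+NAP minus NAP, as low or lower in 16.9%. From the lowest to the highest array the gene spanned 1.99-fold, the widest of the 6 transporters past the filter. Its second probe set was listed at 4 to 7 on the 4 arrays, too dim to show agreement or the lack of it.

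The calcium exporters gave a less uniform picture. Atp2b2 (PMCA2), a fast neuronal calcium pump, had 769 on the KA+NAP array, 736 on the KA array, 887 on the NAP array and 1208 on the PBS array. The PBS array stood apart and the other three were closer together. The log2 difference was −0.71 in KA minus PBS, as low or lower in 6.33% of genes, and −0.20 in KA+NAP minus NAP, as low or lower in 30.3%. Much of the first value rests on the PBS array, since KA minus NAP was −0.27 and NAP minus PBS −0.44. The second probe set, at 36 with KA+NAP, 62 with KA, 78 with NAP and 34 with PBS, was below the filter in its mean and ordered the arrays differently, with 0.71 in KA minus PBS. Averaging both probe sets gave a difference of 0.0016, so the lower value of Atp2b2 in KA minus PBS rests on its brighter probe set.

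Slc8a1 (NCX1), a sodium-calcium exchanger of heart and brain, had 784 on the KA+NAP array, 1035 on the KA array, 876 on the NAP array and 1001 on the PBS array. KA and PBS were nearly level, and the arrays with NAP were the lower ones. The log2 difference was 0.05 in KA minus PBS and −0.16 in KA+NAP minus NAP, so the KA arrays overlapped those without KA. Its second probe set was listed at 16 to 26. Slc8a2 (NCX2), an exchanger found mainly in brain, had 26 on the KA+NAP, KA and NAP arrays and 43 on the PBS array. At this dim level its differences are not read here.

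**Figure D2:**
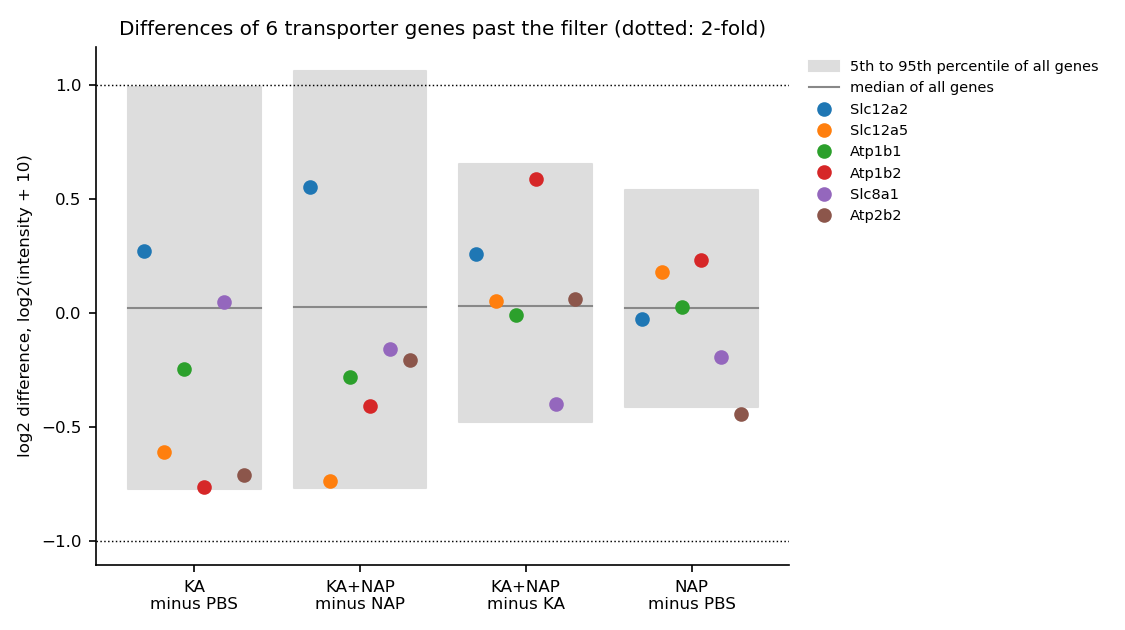
Log2 differences of the 6 transporters past the filter (points) in the 4 comparisons, with the 5th to 95th percentile of all 9490 genes as grey boxes, their median as a grey line and 2-fold as dotted lines. No point reaches a dotted line, and Atp1b2, Atp2b2 and Slc12a5 lie near the lower edge of the box in KA minus PBS, at −0.76, −0.71 and −0.61.

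The promoters of the 3 transporters that were at least 1.5-fold lower in KA minus PBS are shown. Only Slc12a5 reached that size in KA+NAP minus NAP, and a shared cause was not tested. They are from RefSeq on GRCr8, 250 bases before to 50 after the annotated start, 5′ to 3′ on the gene's strand, with GC boxes (GGGCGG, searched on both strands) in capitals. Slc12a5 is at chr3:174115583-174115882 on the + strand, Atp1b2 at chr10:54823659-54823958 on the - strand and Atp2b2 at chr4:148763604-148763903 on the - strand.
Slc12a5: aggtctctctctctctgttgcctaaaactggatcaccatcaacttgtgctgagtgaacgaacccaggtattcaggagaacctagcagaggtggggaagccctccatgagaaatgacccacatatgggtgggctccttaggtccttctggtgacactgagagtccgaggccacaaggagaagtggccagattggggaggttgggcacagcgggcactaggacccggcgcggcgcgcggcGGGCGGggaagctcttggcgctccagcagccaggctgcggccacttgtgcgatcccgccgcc
Atp1b2: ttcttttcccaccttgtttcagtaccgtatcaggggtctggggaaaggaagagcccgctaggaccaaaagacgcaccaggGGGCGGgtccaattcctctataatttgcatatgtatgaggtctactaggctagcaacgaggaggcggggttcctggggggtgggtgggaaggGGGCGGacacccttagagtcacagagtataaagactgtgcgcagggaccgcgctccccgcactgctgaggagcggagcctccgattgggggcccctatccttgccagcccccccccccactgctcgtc
Atp2b2: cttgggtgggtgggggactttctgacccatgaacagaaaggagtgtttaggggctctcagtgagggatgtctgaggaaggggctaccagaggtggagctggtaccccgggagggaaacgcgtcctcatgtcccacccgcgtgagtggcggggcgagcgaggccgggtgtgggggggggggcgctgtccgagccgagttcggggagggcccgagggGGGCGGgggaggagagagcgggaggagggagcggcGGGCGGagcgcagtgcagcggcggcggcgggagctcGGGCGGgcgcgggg
A GC box, the core site of Sp1-type factors, occurred 1 time for Slc12a5, 2 times for Atp1b2 and 3 times for Atp2b2, and 33.1% of all 33469 promoters of this length hold at least 1. Slc12a2, which was higher with KA, also held 3, and Slc8a1 and Slc8a2 held 0. The cAMP response element TGACGTCA (1.83% of all promoters) and the Egr site GCGNGGGCG (4.98%) were in none of the 6 transporter promoters in the table, and the E-box CANNTG (72.1%) was in those of Slc12a2, Slc12a5, Atp1b2, Slc8a1 and Slc8a2. Atp1b1 was not among the promoters used here. A match is a stretch of letters in this window and says nothing of a factor bound there. Only 1 start was used per gene, so sites at any other start were not searched.

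The KA+NAP array was set against the KA array for what the peptide adds in tissue exposed to the toxin. None of the 6 transporters was 2-fold apart, where 1.52% of all genes were higher by that rule and 0.601% lower. The median of the 6 was 0.06, against 0.03 over all genes. Atp1b2 was 664 with KA+NAP against 438 with KA, a log2 difference of 0.59 that 6.45% of genes matched or exceeded. It was the 1 of 6 at least 1.5-fold higher, where 6.53% of all genes were. The value was 0.55 with a pseudocount of 50 or median centring and 0.29 when its dim probe set was averaged in, each under 1.5-fold. Slc8a1 was lower at −0.40, as low or lower in 7.66% of genes, and Slc12a2 was higher at 0.26. Slc12a5, Atp1b1 and Atp2b2 differed by 0.05, −0.01 and 0.06, and their KA+NAP intensities were closer to the KA array than to either array without KA.

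NAP alone was compared with PBS. None of the 6 transporters was 2-fold apart, where 1.05% of all genes were higher by that rule and 0.242% lower. Their median was 0.00, against 0.02 over all genes. Atp2b2 was lower with NAP, at 887 against 1208 with PBS, a log2 difference of −0.44 that 4.14% of genes matched or went below. Slc8a1 was at −0.19, Slc12a2 at −0.02, Atp1b1 at 0.03, Slc12a5 at 0.18 and Atp1b2 at 0.23. KA minus PBS and NAP minus PBS share the PBS array, so a high PBS value, as for Atp2b2, lowers both.

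Related transporters were taken from 8 lists of other pumps, exchangers, cotransporters, their kinases and chloride channels, of which 50 genes had a value and 32 passed the filter. In KA minus PBS, 4 of 32 were higher by at least 2-fold (Fxyd5, Slc24a4, Slc12a4 and Slc4a11) and 2 of 32 lower (Fxyd7 and Slc9a2), where 4.91% and 2.39% of all genes were, with a median of −0.18. In KA+NAP minus NAP these counts were 2 (Slc12a4 and Fxyd5) and 2 (Fxyd7 and Slc4a4), where 5.66% of all genes were higher and 2.41% lower, with a median of −0.22. Slc12a4, counted as higher in both KA differences, passed the filter only through its KA intensity, so it gives no support to either count. At any size, 22 of 32 lay below 0 in each KA difference, where 47.2% of all genes did so in KA minus PBS and 47.3% in KA+NAP minus NAP. In KA+NAP minus KA 1 of 32, Slc4a11, was at least 2-fold lower and 0 higher (0.601% and 1.52% of all genes), and in NAP minus PBS 0 of 32 were 2-fold higher or lower (1.05% and 0.242% of all genes).

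The remaining Na,K-ATPase partners went both ways. Fxyd7, a brain regulator of the pump, had 131 with KA+NAP, 151 with KA, 482 with NAP and 387 with PBS, which gave log2 differences of −1.30 in KA minus PBS and −1.80 in KA+NAP minus NAP. Both KA arrays were far below both others. Fxyd5 (dysadherin), a regulator known from epithelia and tumours, had 524 with KA+NAP, 337 with KA, 183 with NAP and 112 with PBS, with differences of 1.51 and 1.47. Atp1b3, the beta 3 subunit, was higher, at 1528 with KA+NAP, 1440 with KA, 1063 with NAP and 1200 with PBS, the reverse of Atp1b1 and Atp1b2. Fxyd1 (phospholemman) had differences of −0.38 and −0.40, Fxyd6 of −0.55 and −0.90, and the dim Fxyd3 of −0.04 and −0.65. Of these 6 partners past the filter, 4 lay below 0 in each KA difference. Among all genes, 47.2% did so in KA minus PBS and 47.3% in KA+NAP minus NAP.

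All 5 other calcium pumps and partners past the filter lay below 0 in both KA differences, with medians of −0.35 and −0.50 and none at 2-fold by the brightest probe set. Taken singly, 47.2% of all genes lay below 0 in KA minus PBS and 47.3% in KA+NAP minus NAP. Atp2b3 (PMCA3), the other mainly neuronal pump of the Atp2b family, had 900 with KA+NAP, 880 with KA, 1552 with NAP and 1617 with PBS. Its differences were −0.87 in KA minus PBS and −0.78 in KA+NAP minus NAP, while its dimmer probe set past the filter gave −0.44 and −0.03. Atp2b1 (PMCA1), the widespread form, had 2723 with KA+NAP, 2908 with KA, 3022 with NAP and 4131 with PBS, and here again the PBS array stood apart, as it did for Atp2b2. Its KA minus PBS difference was −0.50, and the 2 dimmer probe sets gave −0.91 and −1.01. In KA+NAP minus NAP, without the PBS array, the same probe sets gave smaller values of −0.15, −0.35 and −0.07. In NAP minus PBS, Atp2b1 was at −0.45 and Atp2b2 at −0.44. Atp2a2, the calcium pump of the endoplasmic reticulum, was at −0.35 and −0.55, although its dimmest probe set past the filter gave 0.22 in KA+NAP minus NAP, and Nptn (neuroplastin), a partner subunit of the Atp2b pumps, at −0.25 and −0.32. Atp2b4 was below the filter.

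Among exchangers that also carry potassium, Slc24a2 (NCKX2) had 2450 with KA+NAP, 2453 with KA, 3953 with NAP and 3999 with PBS. Its second probe set past the filter had 526 with KA+NAP, 409 with KA, 658 with NAP and 1047 with PBS, with differences of −1.33 in KA minus PBS and −0.32 in KA+NAP minus NAP. Slc24a3 differed by −0.76 in KA minus PBS and −0.52 in KA+NAP minus NAP. Slc24a4 was highest on the KA array, at 188 with KA+NAP, 374 with KA, 168 with NAP and 124 with PBS, and its second probe set past the filter gave 82, 132, 68 and 60 in the same order of arrays. Slc8a3 (NCX3) was below the filter.

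The 3 other cation-chloride cotransporters past the filter lay above 0 in both KA differences but were dim, and the 3 below the filter are not read here. Of all 9490 genes, 4950 lay above 0 in KA minus PBS and 4961 in KA+NAP minus NAP. Slc12a4 (KCC1), the widely expressed potassium-chloride cotransporter, had 175 with KA+NAP, 106 with KA, 52 with NAP and 46 with PBS, with differences of 1.05 in KA minus PBS and 1.58 in KA+NAP minus NAP. Slc12a7 (KCC4) had 89 with KA+NAP, 67 with KA, 55 with NAP and 46 with PBS. Both genes were under the filter level on the arrays without KA and passed through their KA intensity, so their direction had to be upward and gives no support. Slc12a9 had 96 with KA+NAP, 97 with KA, 81 with NAP and 44 with PBS, with differences of 0.99 in KA minus PBS and 0.22 in KA+NAP minus NAP. Its arrays without KA averaged just under the filter level, so it too passed through its KA intensity and gives no support. Wnk1, a kinase upstream of these cotransporters, had 2808 with KA+NAP, 2054 with KA, 1597 with NAP and 1640 with PBS, the same order of arrays as Slc12a2. A second Wnk1 probe set gave 182 with KA+NAP, 146 with KA, 81 with NAP and 92 with PBS, and a log2 difference of 1.08 in KA+NAP minus NAP. The kinases that act directly on the cotransporters differed from each other, with Oxsr1 (OSR1) at −0.10 and 0.69 and Stk39 (SPAK) at −0.18 and −0.37 in the 2 KA differences.

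**Figure D3:**
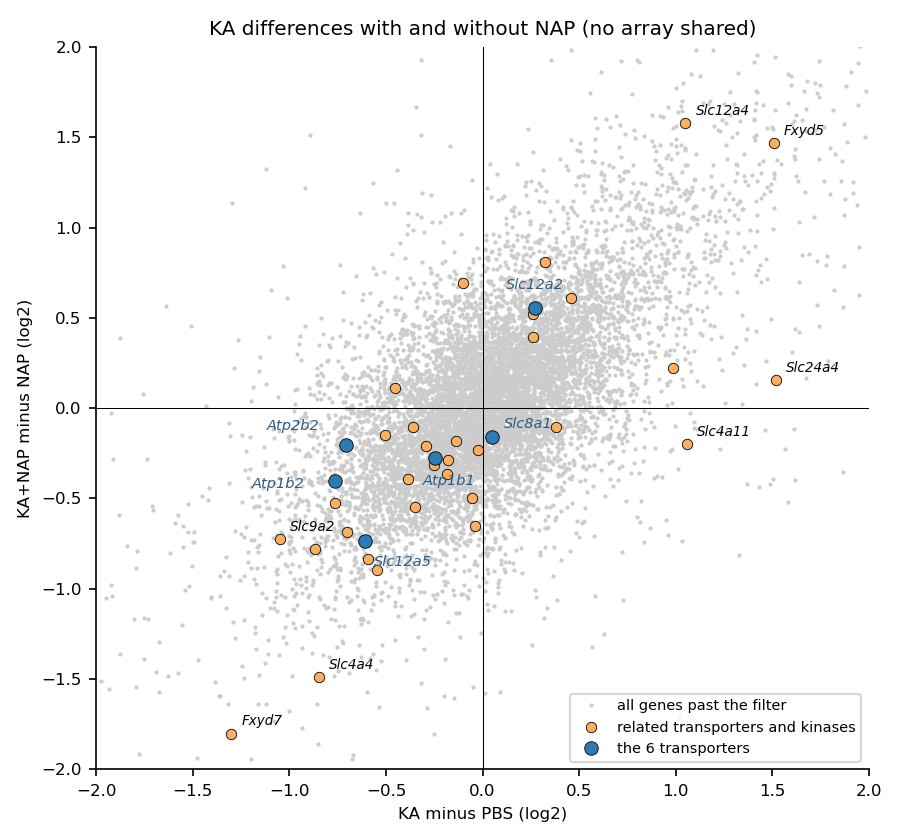
KA minus PBS (x axis, log2) against KA+NAP minus NAP (y axis, log2), which share no array, for all genes past the filter (grey), related transporters and kinases (orange) and the 6 transporters (blue, named). The axes end at 2 in each direction, which leaves 151 genes outside, and Slc12a5, Atp1b1, Atp1b2 and Atp2b2 lie in the lower left part while Slc12a2 lies in the upper right.

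Acid-base exchangers and chloride channels were mostly on the lower side. Slc4a4 (NBCe1), the sodium-bicarbonate cotransporter of astrocytes, had 650 with KA+NAP, 879 with KA, 1844 with NAP and 1592 with PBS, with differences of −0.85 and −1.49. Its second probe set gave −0.83 and −1.09. Slc9a2, a sodium-proton exchanger, was at −1.05 and −0.73. Slc4a11 was also highest on the KA array, at 64 with KA+NAP, 169 with KA, 75 with NAP and 76 with PBS. The 3 chloride channels and exchangers past the filter, Clcn3, Clcn4 and Clcn6, were all below 0 in both KA differences, with medians of −0.36 and −0.19. Of all genes, 47.2% were below 0 in KA minus PBS and 47.3% in KA+NAP minus NAP, taken singly. For Clcn3 the 3 dimmer probe sets lay above 0 in KA+NAP minus NAP, at 0.11, 0.08 and 0.46.

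Markers of cell types that express these transporters also differed between arrays. In bulk tissue, fewer cells of a type and less RNA per cell cannot be told apart. All 8 neuronal markers passed the filter, and their summed intensity was 25957 with KA+NAP, 26161 with KA, 33178 with NAP and 35479 with PBS. In KA minus PBS 7 of 8 were below 0, with a median of −0.51 beside −0.61 for Slc12a5, and in KA+NAP minus NAP 7 of 8 with a median of −0.56 beside −0.74. The shares of all genes below 0 in these comparisons were 47.2% and 47.3%. The defining markers Rbfox3 and Snap25 were at −0.82 and −0.39 in KA minus PBS. The 6 excitatory and CA3 markers summed to 2507 with KA+NAP, 2675 with KA, 4078 with NAP and 4273 with PBS, and the 5 interneuron markers to 4473, 4771, 5021 and 4998 in that order. Most of the interneuron sum was Gad1, and the interneuron list did not move together. In KA minus PBS Gad2 was at 1.15 and Pvalb at −1.08. The medians of the interneuron list were −0.02 in KA minus PBS and 0.10 in KA+NAP minus NAP. The part of neuronal RNA content in the differences of Slc12a5, Atp1b1, Atp2b2, Atp2b3 and Fxyd7 was not tested.

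The 7 astrocyte markers summed to 28227 with KA+NAP, 26142 with KA, 31611 with NAP and 30111 with PBS. Their medians were −0.09 in KA minus PBS and −0.40 in KA+NAP minus NAP. They did not move together, since Gfap was at 0.50 and Aldoc at −1.07 in KA minus PBS, and the defining marker Aqp4 at 0.06. Slc12a2 is also made by choroid plexus and by oligodendrocyte-lineage cells. Choroid plexus and ependymal markers summed to 1096 with KA+NAP, 1740 with KA, 1801 with NAP and 1607 with PBS. Of their defining markers, Ttr was 76 with KA+NAP against 453 with KA, and Kl was listed at 3 to 10 on all arrays. The list did not move together. Enpp2 was 818 with KA+NAP against 1111 with KA. Foxj1 was highest with KA+NAP, at 117 against 86 with KA, 75 with NAP and 74 with PBS. Oligodendrocyte markers (defining marker Mbp) summed to between 18233 and 20480 on the 4 arrays, and precursor markers to 903 with KA+NAP, 764 with KA, 1236 with NAP and 1029 with PBS. Most of the precursor sum was Pdgfra, at 616, 610, 1071 and 844 in that order, and the precursor list did not move together. In KA+NAP minus NAP Pdgfra was at −0.79, while Cspg4 was at 0.48 and Sox10 at 1.26. Endothelial markers summed to 2291 with KA+NAP, 1805 with KA, 2797 with NAP and 2100 with PBS, and microglia and macrophage markers to 1444, 689, 982 and 739 in the same order. Meningeal and fibroblast markers summed to 1122 with KA+NAP, 771 with KA, 1784 with NAP and 941 with PBS. The red cell gene Hbb was at 1549, 186, 1430 and 5 in that order. The part of these cell types in the differences of Slc12a2 and Atp1b2 was not tested.

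**Figure D4:**
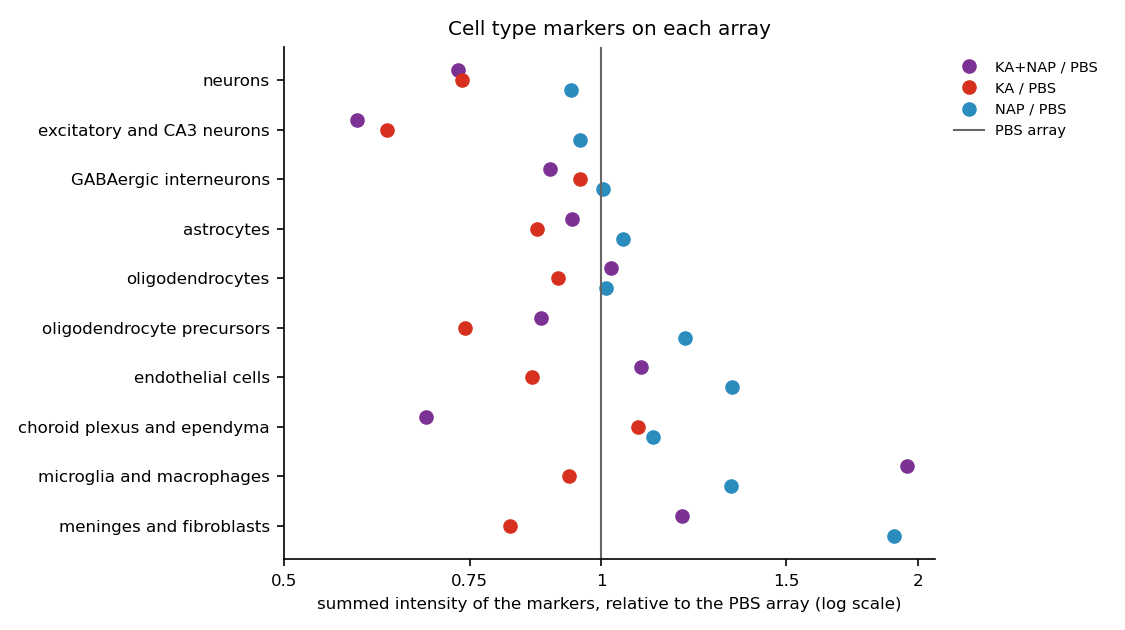
Summed intensity of each cell type's markers on the KA+NAP, KA and NAP arrays relative to the PBS array (x axis, log scale, vertical line at the PBS array). Neuronal markers lie left of the line on both KA arrays (25957 and 26161 against 35479 on the PBS array), and choroid plexus and ependymal markers lie left of the line on the KA+NAP array only.

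Genes of like pattern were to be named for a transporter whose log2 values spanned at least 1 over the 4 arrays. The widest span among the 6 was 0.995, that of Atp1b2, so none is named.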

How the data were processed

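The deposited table holds 1 linear intensity per probe set and array, computed by the authors with MAS5 per the submitters' processing notes. The sources used here give neither the MAS5 version nor its background settings. Simultaneous column extraction of all samples was followed by 2 rounds of amplification of 500 ng total RNA to biotin-labelled cRNA, per the labels' protocols, a procedure that favours transcript 3′ ends. The trimmed mean (2% removed at either end) was 250.1 for all 4 arrays, so they had been scaled. The table has 31099 probe sets, of which 57 were controls, 9780 had no entry in the platform annotation, 436 pointed to several genes and stayed unnamed, and 20832 pointed to 1. Symbols were updated to GRCr8 names by Entrez identifier for 20764 probe sets. No build is named for the table.

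Differences of log2(intensity + 10) were taken between arrays in 4 comparisons, with Python 3.11.15, numpy 2.4.6 and pandas 2.3.3. The calculation was tested on simulated data. There are no replicates and hence no tests. Precision is limited by the number of arrays. Alternatives were pseudocounts of 1 and 50, quantile normalization, median centring, the mean over probe sets, and no filter or one at the 75th percentile. The transporters, the related and marker lists and the settings were chosen with earlier results of these data known. All 7 transporters are named. Of the related genes, those 2-fold apart in any comparison and the closest relatives are named. The others with values (Nptn, Atp2a2, Fxyd1, Fxyd3, Fxyd6, Slc24a2, Slc24a3, Slc12a9 and the chloride channels) were chosen after their values were seen.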

Additional observations from a re-analysis of the deposited data

Results flagged for a closer look

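For 4 transporters a difference lay on opposite sides of 0 with and without the other agent. This was not tested, since each group has 1 array, and differences this close to 0 change sides easily. Slc12a2 was at 0.26 in KA+NAP minus KA and at −0.025 in NAP minus PBS. Atp1b1 was at −0.0074 in KA+NAP minus KA and at 0.027 in NAP minus PBS. Atp2b2 was at 0.062 in KA+NAP minus KA and at −0.44 in NAP minus PBS. Slc8a1 was at −0.16 in KA+NAP minus NAP and at 0.048 in KA minus PBS.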

How the results depend on the processing

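Of 184 recomputed differences of single transporters (9 other settings, of which 2 were added after the data were seen and exchange the arrays without KA), 177 kept their direction and their side of 2-fold, and none reached 2-fold. Of the other 7, 6 changed sign and Atp1b1 in NAP minus PBS came to 0 with quantile normalization. Part of the 177 could not have moved. The filter settings choose genes and leave the value of a single transporter as it was. Averaging probe sets likewise leaves Slc12a2 and Slc12a5 as they were, with 1 probe set each. The 177 is therefore not a measure of how stable the differences are. Averaging probe sets, which brings in dim ones, gave Atp2b2 0.0016, −0.29 and 0.28 in KA minus PBS, in KA+NAP minus KA and in NAP minus PBS, and Slc8a1 0.14 in NAP minus PBS. Median centring gave −0.01 for both Slc8a1 in KA minus PBS and Atp1b1 in NAP minus PBS. The median of the transporters in KA minus PBS was −0.30 with quantile normalization, −0.15 with averaged probe sets, −0.56 with no filter, which adds Slc8a2, and −0.27 for KA minus NAP. In KA+NAP minus NAP it was −0.34 with averaged probe sets. In NAP minus PBS it was −0.013 with quantile normalization, −0.036 with median centring, 0.16 with averaged probe sets and −0.025 with no filter. At 1.5-fold, Atp1b2 was no longer counted in KA+NAP minus KA (0) with a pseudocount of 50, median centring or averaged probe sets. Slc12a2 was the 1 at least 1.5-fold higher in KA+NAP minus NAP with quantile normalization, and 1 transporter was at least 1.5-fold lower in KA minus PBS with averaged probe sets. The cause of these shifts was not tested. Counts of all genes at least 2-fold higher and lower were, for KA minus PBS (466 and 227), 298 and 137 with a pseudocount of 50, 755 and 447 with no filter, 192 and 104 with a 75th percentile filter, and 302 higher against the NAP array. For KA+NAP minus NAP (537 and 229) they were 346 and 131, 902 and 433, and 198 and 97 under the pseudocount, no filter and the stricter filter. For KA+NAP minus KA (144 and 57) the same settings gave 71 and 34, 370 and 194, and 34 and 22. For NAP minus PBS (100 and 23) they gave 48 and 8, 269 and 189, and 37 and 5. No paired analysis was possible because each group has 1 array. Signal over background was not used here, so dim probe sets limit Slc8a2 and the second probe sets.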
